A study of Mus musculus with 16 samples.

Results

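Interferon-stimulated genes were followed across 16 Affymetrix arrays of CD4+CD8+ thymocytes from mouse fetal thymic organ cultures. The list held 38 genes, and a gene was taken as measured where at least 1 probe set named that gene alone. By this rule 29 of the 38 genes were measured, out of 8251 genes with such a probe set, and where several probe sets named 1 gene the one with the highest mean over the 16 arrays was used. No probe set named Stat2, Oas1a, Oasl2, Zbp1, Bst2, Ly6a or Ifi44, and Ifi203 and Tgtp1 were named only together with other genes, so these 9 genes have no value here.

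BDC2.5 is a transgenic T cell receptor that gives most developing T cells a single specificity, and the series compares its carriers on the NOD background, which develops autoimmune diabetes, with carriers on the B6g7 background, a B6 strain that carries the MHC of NOD. The first group was BDC2.5 transgenic thymocytes on the B6g7 background with no peptide added (n = 3 arrays), and the second was the same genotype 16 h after peptide was added (n = 3). BDC2.5 transgenic thymocytes on the NOD background formed the next groups, with no peptide (n = 3) and with peptide for 16 h (n = 3). Wild-type B6g7 cells (n = 2) and wild-type NOD cells (n = 2) carried no transgene. The labels do not say whether cultures without peptide were kept as long as those with it. What is called a peptide response here therefore cannot be told apart from an effect of 16 h more in culture. The labels give neither the peptide, its dose, nor whether the wild-type cultures received it, and they do not say whether arrays of a group came from separate animals or cultures, so the p-values measure the spread between these arrays, which may be technical. Peptide recognition by CD4+CD8+ thymocytes is the setting of negative selection, the removal of self-reactive cells named in the title of the series.

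Type I interferons bind the receptor pair Ifnar1 and Ifnar2, and interferon-gamma binds Ifngr1 and Ifngr2. Both signal through JAK kinases to STAT proteins, which switch on genes for antiviral proteins, guanylate-binding and immunity-related GTPases, chemokines and regulators of the response itself. In the thymus, type I interferon made by epithelial cells is known to keep such genes active at a low level and to act on late stages of thymocyte maturation.

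Interferon acts on these genes through promoter elements that can be read from sequence. The interferon-stimulated response element was searched as GAAA, any 2 bases and GAAA again on both strands, and overlapping matches were counted separately. In the 250 bases before the annotated start, 15 of the 30 listed genes with a promoter in the RefSeq table (build GRCm38.p6) held at least 1 match (50% of them), against 936 of 27025 genes in the table (3.46%). The gamma-activated site was searched as TTCNNNGAA, which reads the same on both strands, and was found in 8 of the 30 (26.7%), against 8.13% of all genes. A match is a stretch of letters and was not tested as a binding site.

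The promoters of 5 genes are printed here because their arrays were separate both between the 2 BDC2.5 NOD groups and between the strains without peptide, as described further on, and because they held a match. Isg20 and Lgals3bp were also separate in both and held no match to the response element, although Isg20 held 1 gamma-activated site between 73 and 65 bases before its start. Each runs 5′ to 3′ on the gene's own strand over the 250 bases before the start, from RefSeq on GRCm38.p6, and capitals mark matches to the interferon-stimulated response element. Isg15 lies at chr4:156200819-156201068 on the minus strand, Ifit1 at chr19:34640639-34640888 on the plus strand and Gbp2 at chr3:142620413-142620662 on the plus strand. Igtp lies at chr11:58199306-58199555 on the plus strand and Irgm1 at chr11:48871421-48871670 on the minus strand.
Isg15: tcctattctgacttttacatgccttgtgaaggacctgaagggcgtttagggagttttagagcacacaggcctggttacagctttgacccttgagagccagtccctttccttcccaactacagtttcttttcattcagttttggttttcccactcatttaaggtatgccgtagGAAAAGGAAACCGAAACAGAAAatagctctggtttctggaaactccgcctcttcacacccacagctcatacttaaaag
Ifit1: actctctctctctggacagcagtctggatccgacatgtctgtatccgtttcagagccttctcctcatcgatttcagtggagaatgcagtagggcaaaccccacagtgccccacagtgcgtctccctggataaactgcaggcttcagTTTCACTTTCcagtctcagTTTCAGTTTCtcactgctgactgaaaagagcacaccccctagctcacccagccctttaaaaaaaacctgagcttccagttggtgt
Gbp2: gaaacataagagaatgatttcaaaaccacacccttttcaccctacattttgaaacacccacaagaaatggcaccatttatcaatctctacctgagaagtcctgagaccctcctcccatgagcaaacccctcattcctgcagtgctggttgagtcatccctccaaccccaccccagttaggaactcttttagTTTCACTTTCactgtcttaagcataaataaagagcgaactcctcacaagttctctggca
Igtp: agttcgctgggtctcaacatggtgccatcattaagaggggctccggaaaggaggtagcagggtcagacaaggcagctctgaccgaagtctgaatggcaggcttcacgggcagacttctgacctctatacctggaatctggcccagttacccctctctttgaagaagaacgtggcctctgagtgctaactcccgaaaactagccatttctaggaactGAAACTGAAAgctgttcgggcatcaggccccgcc
Irgm1: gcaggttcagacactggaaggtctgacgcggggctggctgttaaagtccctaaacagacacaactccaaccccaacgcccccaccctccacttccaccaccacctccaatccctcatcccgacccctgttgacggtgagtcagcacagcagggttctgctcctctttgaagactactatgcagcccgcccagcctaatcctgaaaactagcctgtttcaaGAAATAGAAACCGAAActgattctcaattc
Isg15 held 3 matches that ran into each other, from 78 to 57 bases before the start, and Irgm1 held 2 overlapping ones from 30 to 15 bases before it. Ifit1 held 2 separate matches, while Gbp2 and Igtp held 1 each, that of Gbp2 between 59 and 50 bases before the start. Igtp also held a gamma-activated site between 45 and 37 bases before the start, next to its response element at 34 to 25.

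The expression values are intensities on the authors' scale, and differences are given on the log2 scale with the standard error of limma's moderated fit over all 16 arrays. A gene was called changed where its two-sided p, adjusted by Benjamini-Hochberg over the 12422 probe sets tested in that comparison, was under 0.05. Median intensity per array ran from 54.7 to 59.1, and 9 of the 29 genes had a mean under 50. No detection calls come with the intensities, so it is unknown here whether these dim probe sets were above background. Array 3 of each BDC2.5 group and array 2 of each wild-type group stood apart, with beta-actin 3′ minus 5′ probe set differences of 1.36 to 1.96 (mean 1.69 ± 0.25 SD on the log2 scale, n = 6), against 2.24 to 3.27 (2.67 ± 0.32, n = 10) on the others. These 6 include the 3 arrays on which the median of the 29 genes stood highest of the 16. Leaving them out can therefore also narrow the spread of these genes, and it leaves 1 array in each wild-type group.

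One array carried most of the high values. On array 3 of the BDC2.5 B6g7 group with peptide, all 29 genes lay above their own mean over the 16 arrays, and 22 of them (75.9%) reached their highest value of the series there, against 10.1% of all genes. Within that group it was the highest array for 28 of the 29 genes (96.6%, against 32.4% of all genes), and the median gene stood 3.29-fold above the mean of the other 2 arrays, or 1.72 on the log2 scale. For 7 genes it exceeded the second-highest of the 16 arrays by more than 2-fold. It was 1 of the 6 arrays that stood apart. In wild-type B6g7 and NOD, the array that stood apart exceeded the other by a median of 1.03 and 0.70 on the log2 scale. In BDC2.5 B6g7 without peptide, and BDC2.5 NOD without and with it, the median was 0.045, 0.22 and -0.022. Whether this class of arrays had a part in the high values was not tested.

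**Figure D1:**
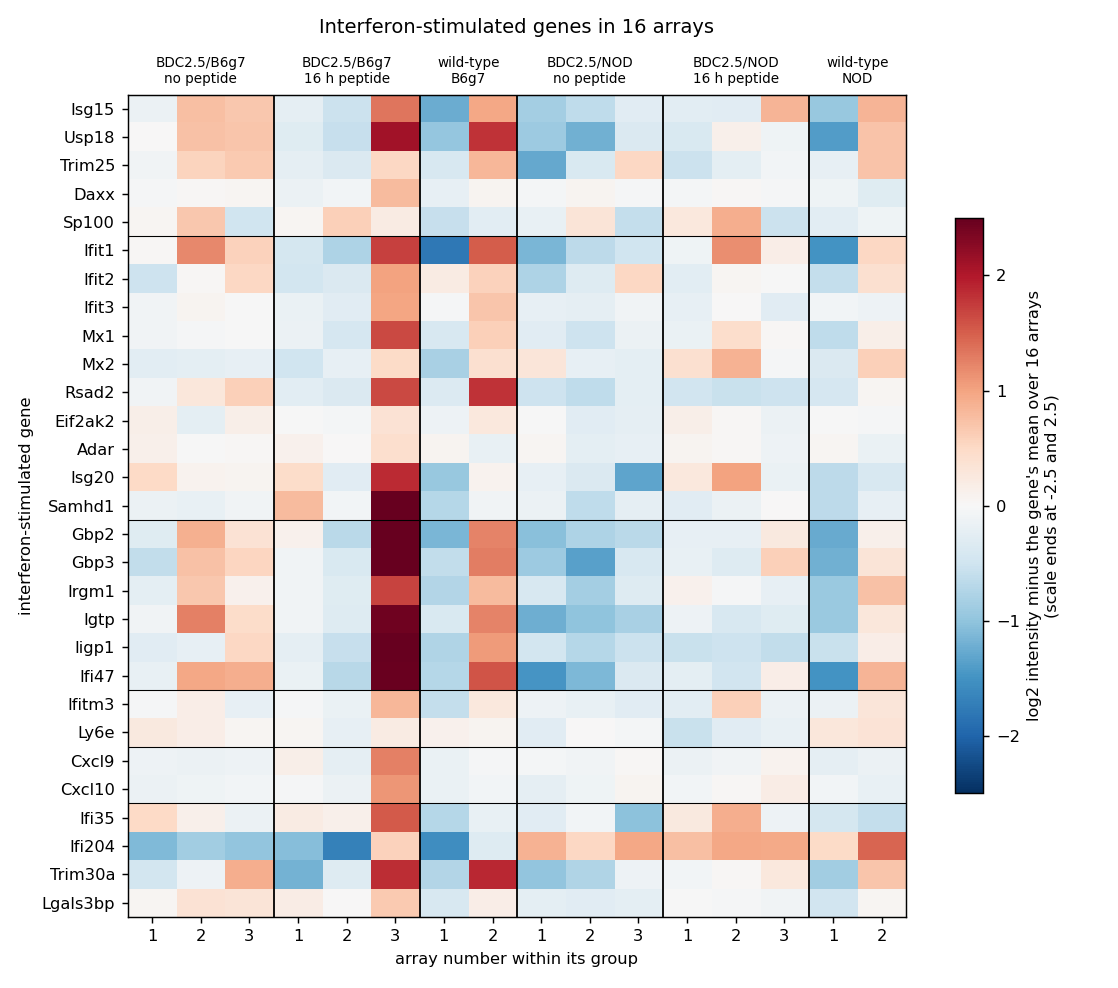
Log2 intensity of the 29 measured interferon-stimulated genes minus each gene's mean over the 16 arrays, 1 column per array and 1 row per gene, ordered by role and separated by lines. Red is above the mean and blue below it, and the third array of BDC2.5/B6g7 with peptide is above the mean for all 29 genes.

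The immunity-related GTPase Iigp1, which disrupts the vacuoles of intracellular parasites, showed this most. Its intensities with peptide on B6g7 were 27, 21 and 595, against 25.8, 27.2 and 45.1 without peptide, 18.6 and 65.6 in wild-type B6g7 and 19.3 to 35.1 over the 8 NOD arrays. The highest value was thus 9.06-fold above the second-highest, on wild-type B6g7 array 2. Gbp2, a guanylate-binding protein that coats such vacuoles, had 155, 90.9 and 1423 with peptide on B6g7 and 116, 268 and 185 without. The first 2 arrays with peptide lay within or below the range without it, and only the third lay above. Samhd1, which degrades deoxynucleotides, read 58.6, 32.3 and 240.0 with peptide and 30.6, 29.9 and 32.1 without. Array 3 was again far above the rest, array 1 was next, and array 2 lay just above the highest array without peptide. The chemokines Cxcl9 and Cxcl10, which attract T cells through Cxcr3, are dim in these arrays, and only array 3 stood out: Cxcl9 read 22.2, 17.2 and 48 and Cxcl10 15.8, 14.7 and 34.9, with the other 15 arrays between 17.2 and 22.2 for the first and 14 and 18.5 for the second. Ly6e, a surface protein of thymocytes and other cells, did not follow, with 3733, 3136 and 4181 in that group and 2479.9 to 4593 over the series.

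**Figure D2:**
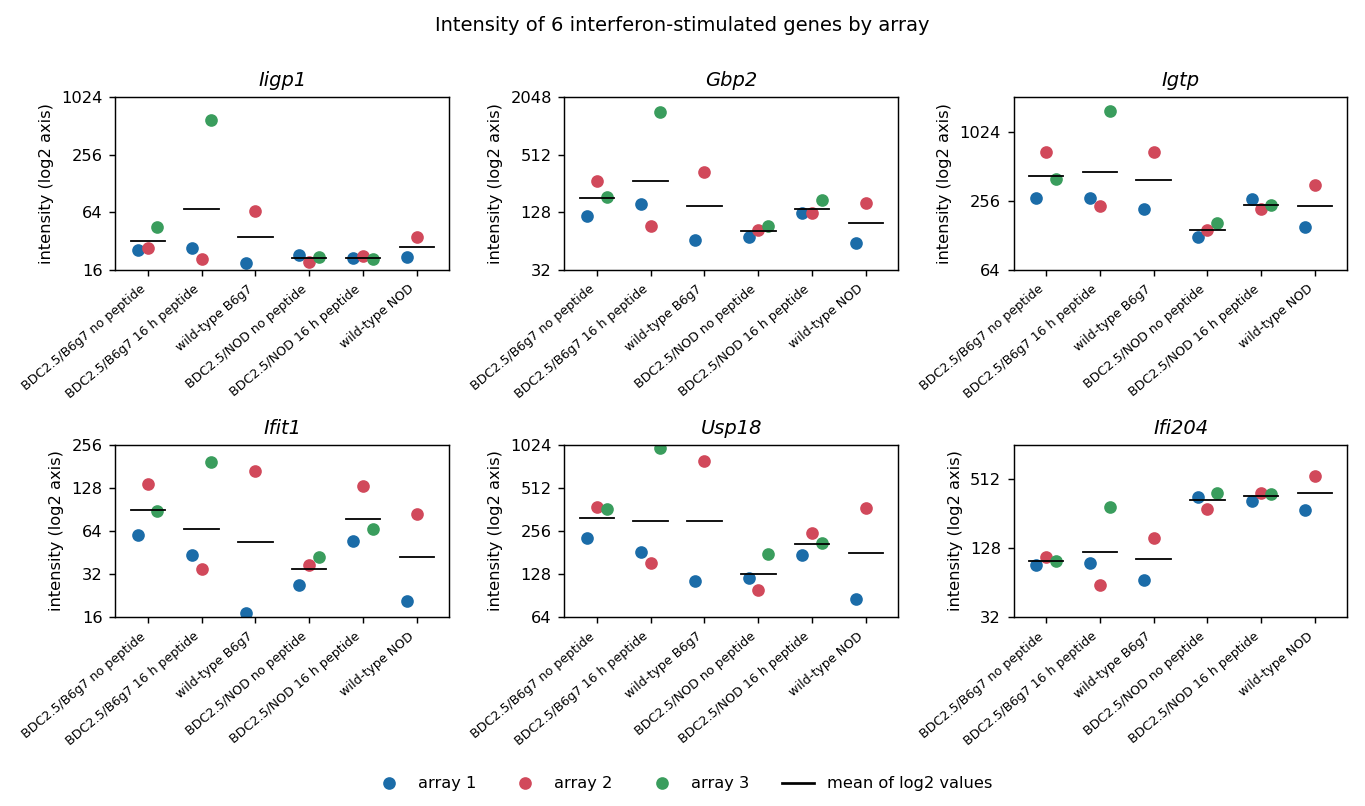
Intensity of 6 interferon-stimulated genes on a log2 axis, 1 point per array coloured by its number, with the mean of the log2 values per group as a line. The third array of BDC2.5/B6g7 with peptide is the highest point for Iigp1, Gbp2, Igtp, Ifit1 and Usp18, while Ifi204 is higher on the NOD background in each pair of groups.

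Genes upstream of the response were uneven on the same array. Irf8, an interferon-induced transcription factor that also defines dendritic cells, read 87.4, 49 and 755 in the B6g7 group with peptide and 35.6 to 87.4 on the other 15 arrays. Irf1, a factor induced by interferon-gamma, read 355, 208 and 1149, against 177 to 525 elsewhere. Irf7, which amplifies type I interferon production, read 85.6, 74.6 and 212, and the RNA sensor Ifih1 read 128, 69.2 and 399. The interferons themselves showed no such array: Ifng lay between 9.57 and 11.8 and Ifnb1 between 15.7 and 20.1 over all 16 arrays, both at the dim end of the scale.

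**Figure D3:**
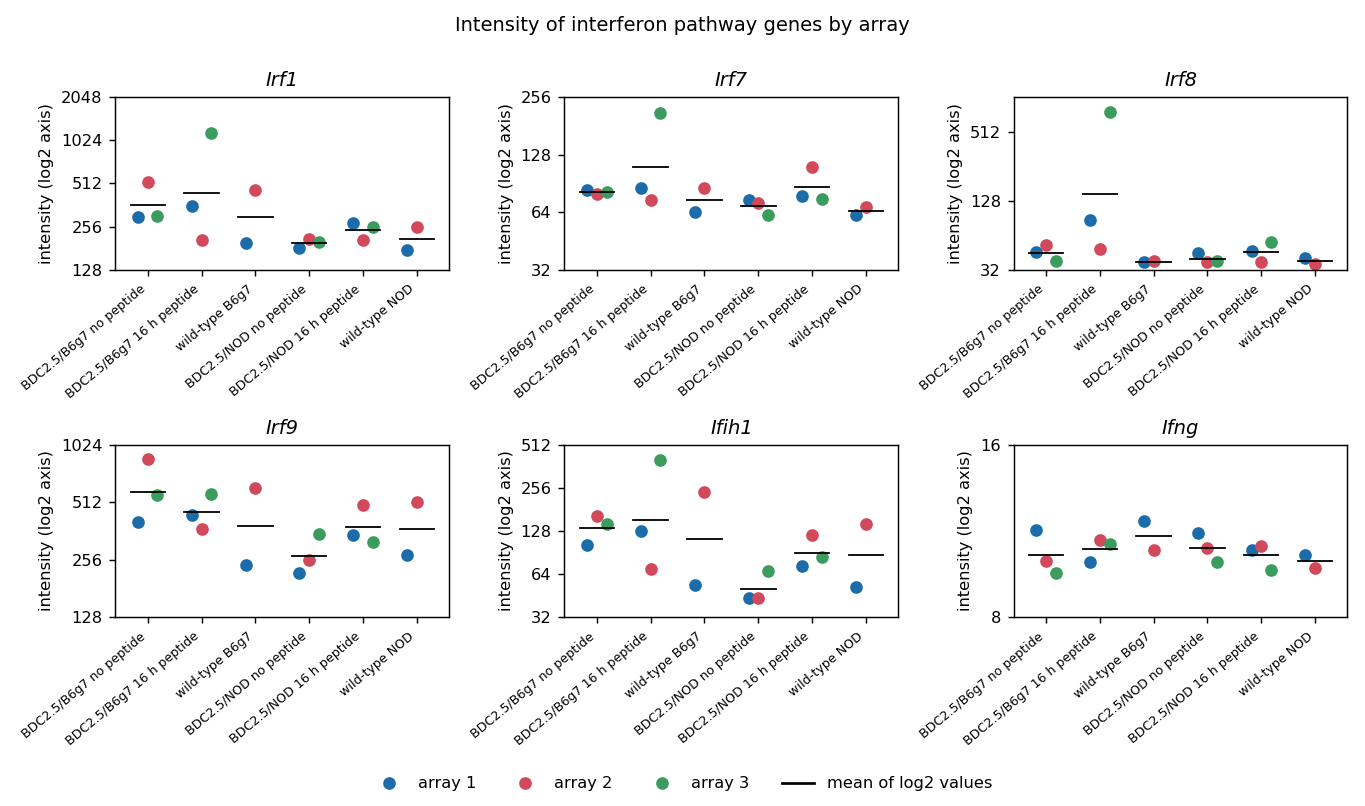
Intensity of 6 interferon pathway genes on a log2 axis, 1 point per array coloured by its number, with the mean of the log2 values per group as a line. Irf1, Irf7, Irf8 and Ifih1 are highest on the third array of BDC2.5/B6g7 with peptide, while Ifng stays between 9.57 and 11.8 on every array.

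Markers of other cells were also measured on that array. The summed intensity of 17 myeloid and dendritic cell markers, all 17 of those listed, was 1869, 2285 and 2381 in the B6g7 group with peptide, against 1340 to 1816 without it, and 4 of the 17 had their highest value of the series on array 3. Among these was the protease Ctss, at 169, 159 and 697, with 41.2 to 262 on the other 15 arrays. Array 3 exceeded the rest of its group by more in Ctss than in the sum. The order of the 3 sums in that group therefore depended on Ctss. Over the whole list, 2, 2 and 4 of the 17 markers had their highest value of the series on arrays 1, 2 and 3 of that group. None of the markers was at 0, since the lowest value in the table is 7.77. The sum of 8 measured markers of double-positive thymocytes, of 9 listed, was 6228, 9104 and 5411, against 9918 to 11058 without peptide. Of 5 listed markers of natural killer and innate lymphocytes 3 were measured, and their sum was 438, 308 and 587 with peptide and 361 to 545 without, so that array 3 was the highest of the 16. Most of that sum was Gzma, a protease of cytotoxic cells, at 402, 275 and 558 with peptide, while the receptors Klrd1, between 16.7 and 23.4, and Ncr1, between 10.8 and 14.1, were dim on all 16 arrays. The part of these cell types in the interferon-stimulated signal was not tested. In such bulk samples fewer cells of a type and less RNA per cell cannot be told apart.

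The first comparison asked how the genes responded to 16 h of peptide on B6g7. Of the 29 genes, 23 were higher (79.3%, against 49% of all genes) and 6 lower with peptide, with a median of 0.18 on the log2 scale, against -0.00 over all genes. None was called by limma at an adjusted p under 0.05, where 0.00805% of all probe sets were called. At an unadjusted p under 0.05 limma gave 1 gene (3.45%, against 3.73% of all genes), Samhd1 at 1.32 ± 0.49 (adjusted p = 1). It was also the only gene with arrays that did not overlap between the groups, 3.45% of the 29 genes against 3.83% of all genes in that direction. No gene had all its arrays with peptide below those without, a pattern shown by 3.05% of all genes.

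By role, the chemokines and GTPases had the larger differences on B6g7. The 6 GTPases had a median of 0.38, with Iigp1 at 1.14 ± 0.91 and Gbp2 at 0.60 ± 0.82, while Igtp, which acts with Irgm1 on parasite vacuoles, was at 0.13 ± 0.63 and Irgm1 at 0.25 ± 0.53. Cxcl9 was at 0.53 ± 0.25 and Cxcl10 at 0.42 ± 0.23. Among the 10 antiviral genes 9 were higher, with a median of 0.15, and Ifit1, which binds foreign RNA caps, was lower at -0.43 ± 0.80. Mx1, a GTPase that blocks influenza virus, was at 0.40 ± 0.42 and Ifit3, the partner of Ifit1, at 0.18 ± 0.26. In the signalling group the ubiquitin-like protein Isg15 was at -0.24 ± 0.62 and Usp18, the protease that removes it from proteins, at -0.07 ± 0.75. Ifi35, a binding partner of other interferon-induced proteins, was at 0.46 ± 0.38.

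These differences rested on array 3. Without it, the median of the 29 genes was -0.24 in place of 0.18, and 6 genes were higher and 23 lower. Pairing arrays by their number, the median was -0.02 for number 1 with 11 genes higher, -0.38 for number 2 with 5 higher, and 1.13 for number 3 with 28 higher. Iigp1 was -0.41 without array 3, Gbp2 -0.59, Igtp -0.75 and Usp18 -0.92. Samhd1 was 0.50 without it, Cxcl9 0.095, Cxcl10 0.019, Ifi35 0.0091, Mx1 -0.24, Irgm1 -0.38, Ifit3 -0.22, Ifit1 -1.20 and Isg15 -0.82. Without all 6 arrays that stood apart, the median was -0.22.

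On NOD, the response to peptide was of the same sign over most genes and no single array carried it. Of the 29 genes, 25 were higher with peptide (86.2%, against 42.4% of all genes), with a median of 0.26, against -0.03 over all genes. None was called by limma, where 0% of all probe sets were called, and 0 genes had an unadjusted p under 0.05, against 1.54% of all genes. The arrays did not overlap for 9 genes that were higher (31% of them), against 2.27% of all genes, and for 0 that were lower, against 3.25%. These were Gbp2, Gbp3, Igtp, Irgm1, Ifit1, Isg20, Isg15, Trim30a and Lgals3bp. The NOD arrays without peptide used here also enter the strain comparison without peptide, so the 2 comparisons are not independent. Many of the 29 genes also rose and fell together from array to array. Genes whose arrays were separate are therefore not independent observations, here or in the other comparisons.

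All 6 measured GTPases were higher on NOD with peptide, with a median of 0.75. Igtp read 124, 143 and 163 without peptide and 262, 216 and 233 with it, a difference of 0.73 ± 0.63. Gbp2 read 70.2, 84 and 90.8 and 124, 126 and 170.3, a difference of 0.77 ± 0.82. Irgm1, a regulator of the other family members, read 57.6, 42.3 and 60.7 and 81.8, 74.7 and 65.6, a difference of 0.48 ± 0.53. In all 3 genes every array with peptide lay above every array without it. Iigp1 did not follow, at 22.8, 19.3 and 21.7 without and 21.4, 22.1 and 20.6 with peptide (0.01 ± 0.91).

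Among the antiviral genes on NOD, Ifit1 read 26.7, 37.3 and 41.9 without peptide and 54.4, 131 and 66.2 with it (1.17 ± 0.80). Isg20, an exonuclease that degrades viral RNA, read 170.0, 153 and 78.4 and 236, 396 and 176 (1.0 ± 0.48). The groups did not overlap for either gene, although for Isg20 the lowest array with peptide lay only just above the highest without. Isg15 read 104, 122 and 154 and 158, 155 and 337 (0.69 ± 0.62), and the arrays were again separate although 2 of the 3 with peptide were within a few units of the highest without. Usp18 was at 0.70 ± 0.75, Ifi35 at 0.80 ± 0.38, Mx1 at 0.42 ± 0.42, Mx2 at 0.47 ± 0.34 and Ifit3 at 0.01 ± 0.26. Ly6e was at -0.24 ± 0.17 and Cxcl10 at 0.14 ± 0.23. The standard errors come from all 6 groups and include the wide spread of the B6g7 group with peptide.

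Matched by number, the NOD arrays gave medians of 0.24 (21 genes higher), 0.48 (26 higher) and 0.13 (21 higher), so all 3 pairs had the same sign. Leaving out any 1 of the 6 arrays kept the median between 0.19 and 0.37. Without the 6 arrays that stood apart the median was 0.45, with 26 genes higher. Myeloid and dendritic markers summed to 1301 to 1546 without peptide and 1400 to 1510 with it, ranges that overlap almost wholly. Double-positive markers summed to 7107 to 12493 without and 6236 to 7841 with peptide. The 3 natural killer and innate lymphocyte markers summed to 273 to 334 without and 337 to 472 with peptide, with no overlap. Most of that sum was Gzma, at 297, 243 and 290.1 without peptide and 346, 309 and 441 with it. The rest, Klrd1 and Ncr1 together, overlapped between the groups, so the separation was in Gzma. The part of these cells in the result was not tested.

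**Figure D4:**
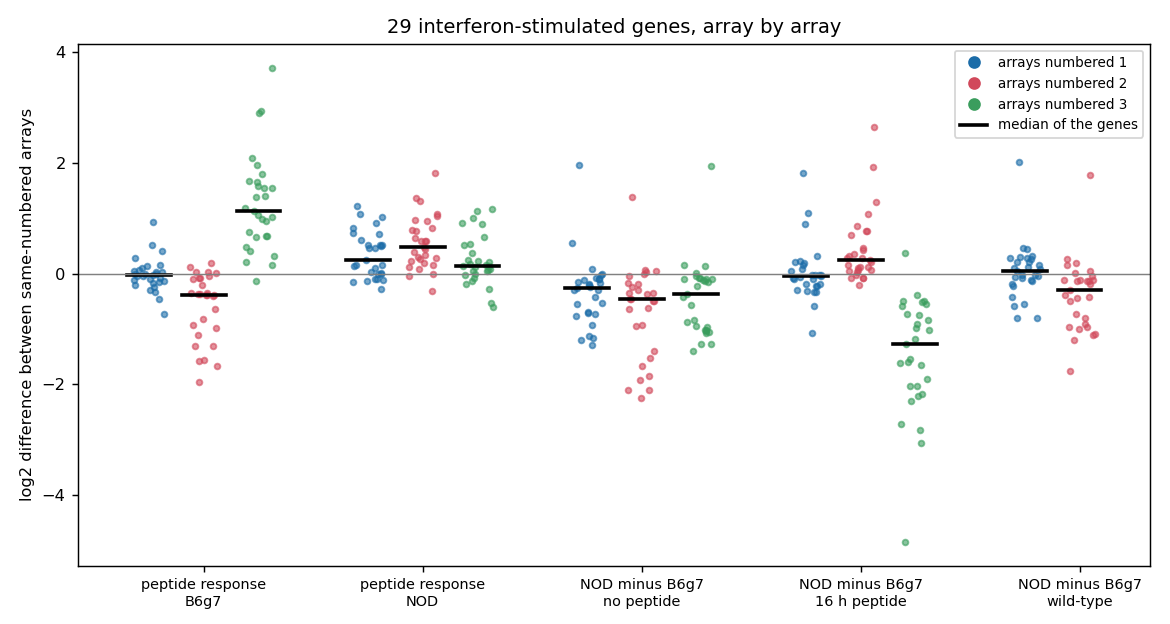
Log2 differences of the 29 interferon-stimulated genes between arrays of the same number, 1 point per gene, in the 2 peptide comparisons and the 3 strain comparisons, with the median of the genes as a bar. The number 3 pair stands apart at a median of 1.13 in the B6g7 peptide response and -1.27 in the strain difference at 16 h, while the 3 pairs of the strain difference without peptide all have medians between -0.46 and -0.26.

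Averaged over both strains, 27 of the 29 genes were higher with peptide (93.1%, against 43% of all genes), with a median of 0.28 against -0.02 over all genes. None was called by limma (0.0242% of all probe sets were). An unadjusted p under 0.05 was reached by 2 genes (6.9%, against 3.84% of all genes), Ifi35 at 0.63 ± 0.27 and Samhd1 at 0.75 ± 0.35, both with an adjusted p of 0.998 by limma. Isg20 followed at 0.73 ± 0.34, Cxcl10 at 0.28 ± 0.16 and Ly6e at -0.19 ± 0.12. Without array 3 of B6g7 with peptide the median was 0.04, and 15 genes were higher, with Samhd1 at 0.34, Ifi35 at 0.40, Isg20 at 0.43 and Cxcl10 at 0.078. The response on NOD minus that on B6g7 had a median of 0.17, with 19 genes higher (65.5%, against 43.4% of all genes). Limma called none (0% of all probe sets were called), with 0 at an unadjusted p under 0.05, against 1.03% of all genes. The genes with the smallest p were Samhd1 at -1.13 ± 0.70, Cxcl9 at -0.55 ± 0.35, Ifit1 at 1.60 ± 1.13, Isg15 at 0.93 ± 0.88 and Iigp1 at -1.13 ± 1.29. Without array 3 the median was 0.55, and 27 genes were higher on NOD, with Samhd1 at -0.31, Cxcl9 at -0.11, Ifit1 at 2.37, Isg15 at 1.51 and Iigp1 at 0.42. Without the 6 arrays that stood apart the median was 0.62, with 27 genes higher. With all arrays, a difference between the strains in their response to peptide did not pass the test.

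Before any peptide, interferon-stimulated genes were lower in BDC2.5 thymocytes on NOD than on B6g7. Of the 29 genes 25 were lower and 4 higher, with a median of -0.50 against 0.03 over all genes, and 13.8% were higher on NOD against 60.2% of all genes. None was called by limma, where 0.266% of all probe sets were called, and 3 had an unadjusted p under 0.05 (10.3%, against 3.42% of all genes). All NOD arrays lay below all B6g7 arrays for 14 genes (48.3% of the 29), against 2.39% of all genes, and above them for 2 (6.9%, against 3.01%), which were Ifi204 and Cxcl9. Some of these separations were narrow and on dim probe sets. Cxcl9 read 18.14 to 18.45 on B6g7 and 18.89 to 20.5 on NOD. Among the lower genes, Ifit3 read 17.97 to 20.13 and 16.41 to 17.92, and Mx1 15.7 to 16.65 and 11.77 to 15.13. Because many of these genes move together from array to array, the 14 lower genes are not 14 independent observations. Matched by number the medians were -0.26, -0.46 and -0.36, with 26, 25 and 25 genes lower, and leaving out any 1 of the 6 arrays kept the median between -0.51 and -0.30. Without the 6 arrays that stood apart the median was -0.34, with 25 genes lower. Some markers of other cells also differed between these groups. The natural killer and innate lymphocyte sum was 361 to 545 on B6g7 and 273 to 334 on NOD. Most of it was Gzma, at 510.3, 459 and 331 on B6g7 and 297, 243 and 290.1 on NOD. The rest of the sum, Klrd1 and Ncr1 together, overlapped between the strains, so this separation was in Gzma. Of 3 plasmacytoid dendritic cell markers 2, Tcf4 and Spib, were measured, and their sum lay the other way without overlap, at 174 to 211 on B6g7 and 233 to 249 on NOD. The part of these cells in the result was not tested.

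All 6 GTPases were lower on NOD without peptide, with a median of -1.13. Igtp read 270.5, 683 and 395 on B6g7 and 124, 143 and 163 on NOD, a difference of -1.55 ± 0.63 (adjusted p = 1 by limma, unadjusted under 0.05). Ifi47, another immunity-related GTPase, read 248, 553 and 529.6 and 102, 129 and 219 (-1.55 ± 0.80). Gbp2 read 116, 268 and 185 and 70.2, 84 and 90.8 (-1.14 ± 0.82). The strains did not overlap for any of these 3 genes, and array 2 of B6g7 was the highest in each. Irgm1 was at -0.70 ± 0.53 and Iigp1 at -0.58 ± 0.91, also without overlap.

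The 5 signalling genes were lower as well, with a median of -0.75. Isg15 read 171, 319 and 300 on B6g7 and 104, 122 and 154 on NOD (-1.02 ± 0.62). Usp18 read 229, 375 and 362 and 120.4, 98.7 and 176 (-1.30 ± 0.75). Both genes had every NOD array below every B6g7 array. Among the antiviral genes, 9 of 10 were lower with a median of -0.20, and Ifit1 read 59.7, 135 and 87.7 on B6g7 against 26.7, 37.3 and 41.9 on NOD (-1.36 ± 0.80). Isg20 was at -0.85 ± 0.48, Mx1 at -0.27 ± 0.42 and Ifit3 at -0.17 ± 0.26. Lgals3bp, a secreted galectin-binding glycoprotein, read 66.6, 82.8 and 80.8 and 54.3, 52.9 and 54.9, a small difference of -0.50 ± 0.19 with tight arrays (adjusted p = 1 by limma, unadjusted under 0.05). Cxcl10 was at 0.02 ± 0.23.

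As a description, the 10 measured genes whose promoter held the response element had a median of -0.88 in this comparison, and the 13 with a promoter in the table and no match had -0.20. In the peptide response on NOD the same 2 sets had medians of 0.69 and 0.19. These 2 comparisons share the NOD arrays without peptide. The order was the other way in the peptide response on B6g7, at 0.15 with the element and 0.18 without, and in the transgene difference on B6g7, at 0.06 and 0.15. No match says only that these letters were not in the 250 bases searched.

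Upstream genes were followed as a second list of 42, of which 34 were measured, and limma called none in any of the 9 comparisons. Without peptide 21 of the 34 were lower on NOD, with a median of -0.03, and 3 had an unadjusted p under 0.05 (8.82%, against 3.42% of all genes). These were the transcription factor Irf9 at -1.11 ± 0.38 (adjusted p = 0.846 by limma), Ifih1 at -1.41 ± 0.61 and, on a dim probe set, the cytokine Il15 at 0.15 ± 0.05. Irf9 read 402, 859.8 and 556 on B6g7 and 217, 254 and 350.4 on NOD, with no overlap. Irf1 was at -0.88 ± 0.49 and Irf7 at -0.24 ± 0.30, and 5 of the 6 interferon regulatory factors were lower. The receptor chains Ifnar1, at 0.12 ± 0.18, and Ifngr1, at -0.17 ± 0.33, differed between the strains by less than their standard errors.

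In the B6g7 peptide response, 3 of the 34 genes (8.82%, against 3.73% of all genes) had an unadjusted p under 0.05 in limma and an adjusted p of 1. These were Ifnar1 at 0.49 ± 0.18, Irf8 at 1.71 ± 0.67 and the interleukin-12 subunit Il12a at -0.19 ± 0.09. Irf1 was at 0.28 ± 0.49, Irf7 at 0.44 ± 0.30, Irf9 at -0.35 ± 0.38 and Ifngr1 at -0.32 ± 0.33. Ifnar1 read 106, 107 and 150.1 with peptide and 96.9, 78.9 and 80.8 without, so that all 3 arrays with peptide, not the third alone, lay above those without. In NOD, Irf9 was at 0.49 ± 0.38, Irf1 at 0.31 ± 0.49, Irf7 at 0.32 ± 0.30, Ifnar1 at -0.06 ± 0.18 and Ifngr1 at -0.46 ± 0.33. Other upstream genes, not named here, reached an unadjusted p under 0.05 in limma on NOD, 2 of the 34 (5.88%, against 1.54% of all genes). The count was 2 in the strain difference at 16 h (5.88%, against 5.67%) and 1 in wild-type cells (2.94%, against 2.04%). All 6 measured interferon regulatory factors were higher on NOD with peptide, as were all 4 nucleic acid sensors, while 1 of the 9 interferon ligands was.

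With 16 h of peptide the sign of the strain difference turned on 1 array. Of the 29 genes 26 were lower on NOD and 3 higher (10.3%, against 51.2% of all genes), with a median of -0.28 against 0.00 over all genes. Limma called none (0.491% of all probe sets were called), with 2 at an unadjusted p under 0.05 (6.9%, against 5.67% of all genes). Arrays did not overlap for 2 lower genes, Lgals3bp and Rsad2 (6.9%, against 5.67% of all genes), and for 1 higher gene, Ifi204 (3.45%, against 6.47%). Matched by number the medians were -0.04, 0.25 and -1.27, and without array 3 of B6g7 the median was 0.15 with 20 genes higher. Samhd1 was at -1.33 ± 0.49 (adjusted p = 0.663 by limma), Iigp1 at -1.70 ± 0.91, Ly6e at -0.35 ± 0.17, Cxcl9 at -0.45 ± 0.25, Igtp at -0.95 ± 0.63 and Gbp2 at -0.97 ± 0.82. Isg15 at -0.09 ± 0.62 and Ifit1 at 0.23 ± 0.80 were near 0. Usp18 was at -0.53 ± 0.75, Irgm1 at -0.47 ± 0.53, Ifit3 at -0.33 ± 0.26, Mx1 at -0.26 ± 0.42 and Cxcl10 at -0.26 ± 0.23. Myeloid and dendritic markers summed to 1869 to 2381 on B6g7 and 1400 to 1510 on NOD. The plasmacytoid dendritic cell sum lay the other way, at 158 to 175 and 189 to 231, while the other marker lists overlapped. The part of these cells in the result was not tested. Without array 3 of B6g7, Samhd1 was at -0.51, Iigp1 at -0.15, Cxcl9 at -0.017, Igtp at -0.069, Gbp2 at 0.22, Isg15 at 0.49, Ifit1 at 1.0, Usp18 at 0.32, Irgm1 at 0.15, Ifit3 at 0.072, Mx1 at 0.38 and Cxcl10 at 0.14. Without all 6 arrays that stood apart, the median of the 29 genes was 0.11, with 19 genes higher.

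In wild-type cells, 22 of the 29 genes were lower on NOD and 7 higher (24.1%, against 42.4% of all genes), with a median of -0.10 against -0.02 over all genes. Under quantile normalization 19 were lower and 10 higher. None was called by limma, where 0.0886% of all probe sets were called, and 1 had an unadjusted p under 0.05 (3.45%, against 2.04% of all genes). With 2 arrays a group, the arrays were separate for 1 lower gene, Ifit3 (3.45%, against 13.3% of all genes), and for 3 higher ones, Ifi204, Ly6e and Sp100 (10.3%, against 6.69%). The arrays within each wild-type group differed more than the strains did. Array 2 was above array 1 for 27 of the 29 genes on B6g7, by 2.04-fold at the median, and for 23 on NOD, by 1.63-fold, where 46.6% and 38.6% of all genes were higher. Ifit1 read 17.1 and 168 on B6g7 and 20.9 and 84.5 on NOD, and Usp18 read 115 and 792 and 85.6 and 371. In both genes the second array was several times the first, and the strains overlapped. Rsad2, an antiviral enzyme, was at -0.92 ± 0.63 and Ifit2 at -0.50 ± 0.50. Isg15 was at 0.08 ± 0.76, Gbp2 at -0.61 ± 1.01, Igtp at -0.75 ± 0.77, Irgm1 at -0.12 ± 0.65, Iigp1 at -0.35 ± 1.11, Mx1 at -0.33 ± 0.52, Cxcl10 at -0.01 ± 0.28, Ifit1 at -0.35 ± 0.98, Usp18 at -0.76 ± 0.92 and Ifit3 at -0.42 ± 0.32.

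Ifi204, a DNA-binding protein of the interferon-induced Ifi200 family, was higher on NOD in all 3 strain comparisons, as was Mx2 (0.19 and 0.49 in BDC2.5 cells before and after peptide, 0.33 in wild-type ones). Ifi204 read 92.2, 108 and 100 on B6g7 and 359.8, 282 and 386 on NOD without peptide, a difference of 1.76 ± 0.47 (adjusted p = 0.31 by limma). With peptide it read 94.2, 61.2 and 294 and 331, 384 and 380.4 (1.61 ± 0.47, adjusted p = 0.334 by limma), and in wild-type cells 67.4 and 158 and 274 and 543 (1.90 ± 0.57, adjusted p = 0.832 by limma). All 8 NOD arrays thus lay above the B6g7 arrays of the same condition, and it had the smallest p of the 29 genes in each of the 3 strain comparisons. Without array 3 of B6g7 with peptide, Ifi204 was called at 16 h (2.26, adjusted p = 0.0231 by limma). It was also called by limma without all 6 arrays that stood apart (1.67, adjusted p = 0.0289 without peptide, and 2.23, adjusted p = 0.00419 at 16 h).

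The Ifi204 value rests on 1 of 3 probe sets. The brightest has the suffix that marks sequence shared within a gene family, so its signal may come from related Ifi200 genes. The other 2, with mean intensities of 32.4 and 10.7, gave strain differences of 0.03 and 0.02 without peptide, -0.01 and 0.14 at 16 h, and -0.14 and 0.26 in wild-type cells. The difference was not seen in these dim probe sets.

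The transgene was compared in cells without peptide. On B6g7, 18 of the 29 genes were higher in BDC2.5 than in wild-type cells, with a median of 0.08 against -0.01 over all genes (62.1% higher, against 45.5%). Limma called none (0.0805% of all probe sets were called), with 0 at an unadjusted p under 0.05, against 1.28% of all genes. Arrays did not overlap for 1 higher gene, Ifi35 (3.45%, against 4.17% of all genes), and for 0 lower ones, against 6.31%. The 5 smallest p-values belonged to Lgals3bp at 0.36 ± 0.21, Ifi35 at 0.60 ± 0.43, Sp100 at 0.50 ± 0.40, Isg20 at 0.64 ± 0.54 and Ifit3 at -0.33 ± 0.29. The median was -0.58 without wild-type array 1 and 0.64 without wild-type array 2. Without the arrays that stood apart, 1 of the 3 BDC2.5 and 1 of the 2 wild-type arrays here, the median was 0.57 with 28 genes higher. Double-positive markers summed to 9918 to 11058 in BDC2.5 and 13726 to 17136 in wild-type cells on B6g7. Mesenchymal and endothelial markers summed to 471 to 563 and 566 to 572, while the other marker lists overlapped. The part of these cells in the result was not tested.

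On NOD, 23 of the 29 genes were lower in BDC2.5 than in wild-type cells, with a median of -0.18 against 0.04 over all genes, and 20.7% were higher against 60.9%. None was called by limma, where 0.0564% of all probe sets were called, and 1 had an unadjusted p under 0.05 (3.45%, against 1.76% of all genes). That was Ly6e, which read 2989, 3659.8 and 3523 in BDC2.5 and 4386 and 4593 in wild-type cells (-0.41 ± 0.19, adjusted p = 0.999 by limma). The arrays of Ly6e did not overlap, the only lower gene of which this held (3.45%, against 2.36% of all genes), and Cxcl9 and Daxx did not overlap in the other direction (6.9%, against 5.79%). The Ly6e probe set has the same gene-family suffix as the brightest one of Ifi204, so in every comparison its signal may come from related genes. Trim25, a ubiquitin ligase that activates RNA sensing, was at -0.64 ± 0.50, Igtp at -0.68 ± 0.70, Eif2ak2, the kinase that stops translation in infected cells, at -0.15 ± 0.16, and Daxx at 0.20 ± 0.23. The median was -0.51 without wild-type array 1 and 0.19 without wild-type array 2.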

How the data were processed

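RNA of 16 CD4+CD8+ thymocyte samples from fetal thymic organ culture was measured on Affymetrix arrays. The authors deposited 1 table of 12488 probe sets by 16 arrays, and its values, from 7.77 to 14085, are summarised intensities on a linear scale. The summary and scaling methods are not given in the sources used here. Arrays were assigned to groups from the labels. After 66 control probe sets were left out, log2 intensities of 12422 probe sets were fitted with limma 3.58.1 in R 4.3.3 (6 group means over all 16 arrays, eBayes with a variance trend, two-sided tests, Benjamini-Hochberg adjustment within each comparison, threshold 0.05). The script was tested on simulated data. The number of arrays limits the precision. Genes were named from the platform annotation: 10833 probe sets named 1 gene, 396 several and 1193 none, and only the first were used.

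Named genes were those called, the 5 smallest p-values per comparison and, in the peptide and strain comparisons within 1 condition, Isg15, Ifit1, Ifit3, Usp18, Mx1, Irgm1, Igtp, Iigp1, Gbp2 and Cxcl10. For upstream genes the 3 smallest p-values were named only in the strain difference without peptide and the peptide response on B6g7. Irf1, Irf7, Irf9, Ifnar1 and Ifngr1 were named in these and in the peptide response on NOD. Other genes were described after their values were seen. The genes, lists and alternatives were chosen with earlier results of these data known. Marker lists of other cell types gave group ranges of summed intensity of 344 to 491 for 5 B cell genes, 173 to 587 for 3 innate lymphocyte genes, 218 to 272 for 6 epithelial genes, 463 to 629 for 6 mesenchymal and endothelial genes, 108 to 181 for 2 erythroid genes and 158 to 293 for 2 plasmacytoid dendritic cell genes.

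Deviations of same-numbered BDC2.5 arrays from their group means correlated at 0.16 to 0.84 in all 18 comparisons, and those of different numbers at -0.83 to 0.45. Arrays sharing a number were therefore also described as pairs among the BDC2.5 groups. This pairing comes from the data and not from the labels. The main limma fit, which gave the standard errors, p-values and calls, did not pair arrays. The number entered limma only in the alternative with a block. Alternatives were the replicate number as a block, quantile normalization, a pseudocount of 32, a filter on dim probe sets, no variance trend, only the groups compared, the mean of a gene's probe sets, each array left out, and the 6 arrays that stood apart left out.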

Additional observations from a re-analysis of the deposited data

How the results depend on the processing

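No interferon-stimulated gene was called in any of the 9 comparisons with all arrays, nor under quantile normalization, the pseudocount, the filter on dim probe sets, the fit without a variance trend, the fit of only the groups compared or the mean of a gene's probe sets. With the replicate number as a block, again 0 of the 29 genes were called in each comparison. Unadjusted p under 0.05 was then reached by 7 genes in the strain difference without peptide, 3 at 16 h and 3 in the peptide response on B6g7, against 6.45%, 10.8% and 7.88% of all genes, and the block changed no call of a named gene. Without the 6 arrays that stood apart 1 gene, Ifi204, was called in the strain difference without peptide and 1, the same gene, at 16 h, and without array 3 of B6g7 with peptide 1, again Ifi204, was called at 16 h. Depth in the sense of counts does not apply to arrays, and the 9 dim genes are limited by unknown background.

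The median of the 29 genes ranged, over leaving out each array, from -0.24 to 0.42 in the peptide response on B6g7, 0.19 to 0.37 on NOD, 0.04 to 0.41 in their mean and -0.13 to 0.55 in their difference. It ranged from -0.51 to -0.30 in the strain difference without peptide, -0.49 to 0.15 at 16 h and -0.62 to 0.27 in wild-type cells, and from -0.58 to 0.64 and -0.51 to 0.19 in the transgene differences on B6g7 and NOD. The ends above and below 0 on B6g7 with peptide came from leaving out arrays 2 and 3 of that group, and those in wild-type cells from wild-type arrays. Under the other alternatives the 72 medians computed moved by less than the 0.50 SD of the median between replicates. That spread is wide, and without the 6 arrays that stood apart 4 of them changed sign, to -0.22 in the peptide response on B6g7, 0.11 in the strain difference at 16 h, 0.048 in wild-type cells and 0.15 in the transgene difference on NOD. With the block the transgene difference on B6g7 changed sign, to -0.084. The block followed the array number, so wild-type array 2, which stood apart, shared a block with BDC2.5 arrays 2, which did not. In the transgene comparisons the block thus did not match the arrays that stood apart, and no conclusion is drawn from this sign change.

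Of 89 gene values, none of which was called, 32 changed sign when at least 1 array was left out, and the cause was not tested. Ranges over the arrays left out follow. In the peptide response on B6g7 they were Gbp2 -0.59 to 1.39, Ifit1 -1.20 to 0.037, Ifit3 -0.22 to 0.42, Igtp -0.75 to 0.62, Iigp1 -0.41 to 2.0, Irgm1 -0.38 to 0.62, Isg15 -0.82 to 0.12, Mx1 -0.24 to 0.79 and Usp18 -0.92 to 0.41. In the peptide response on NOD they were Ifit3 -0.066 to 0.074 and Iigp1 -0.059 to 0.061. In the difference in response it was Iigp1 -1.99 to 0.42. In the strain difference without peptide it was Cxcl10 -0.055 to 0.084. In the strain difference at 16 h they were Cxcl10 -0.49 to 0.14, Gbp2 -1.76 to 0.22, Ifit1 -0.23 to 1.0, Ifit3 -0.57 to 0.072, Irgm1 -0.84 to 0.15, Isg15 -0.46 to 0.49, Mx1 -0.65 to 0.38 and Usp18 -1.01 to 0.32. In the strain difference in wild-type cells they were Cxcl10 -0.071 to 0.045, Gbp2 -1.79 to 0.57, Ifit1 -2.0 to 1.30, Igtp -1.57 to 0.062, Iigp1 -1.26 to 0.56, Irgm1 -0.95 to 0.71, Isg15 -1.03 to 1.18, Mx1 -0.83 to 0.17, Rsad2 -1.99 to 0.16 and Usp18 -2.15 to 0.63. In the transgene difference on B6g7 it was Ifit3 -0.69 to 0.024. Without the 6 arrays that stood apart, 20 gene values changed sign: in the peptide response on B6g7 Gbp2 -0.57, Ifi35 -0.14, Ifit3 -0.22, Igtp -0.79, Iigp1 -0.16, Irgm1 -0.42 and Mx1 -0.23, in the difference in response Iigp1 0.21, in the strain difference without peptide Cxcl10 -0.040, in the strain difference at 16 h Cxcl10 0.067, Gbp2 0.075, Ifit3 0.13, Irgm1 0.24, Isg15 0.12, Mx1 0.42 and Usp18 0.31, in the strain difference in wild-type cells Cxcl10 0.087, Ifit1 0.29 and Iigp1 0.21, in the transgene difference on B6g7 Ifit3 0.022. Under quantile normalization Cxcl10 in wild-type cells was 0.015.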
